A study of Homo sapiens with 6 samples.

Results

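Ubiquitin-conjugating enzymes, called E2 enzymes, take activated ubiquitin from an E1 enzyme onto a cysteine and pass it, with the help of an E3 ligase, to a target protein. The E2 decides in many reactions whether a single ubiquitin or a chain is made and through which lysine the chain grows, and so whether the target goes to the proteasome or changes its activity or place. A few family members carry the ubiquitin-like protein NEDD8 in place of ubiquitin, and a pair of them lacks the active cysteine and acts as a partner of another E2. In dividing cancer cells the family is best known for its work in mitosis, DNA repair and quality control at the endoplasmic reticulum (ER).

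The 30 E2 genes described here were chosen by gene symbol, with earlier results of these libraries known, out of 58233 rows with an Ensembl identifier. The rule names the level and the difference between the groups as what is described, so levels, differences and calls of the 30 genes are a description of these libraries and support nothing further. Each symbol matched 1 row, and all 30 genes passed the minimum mean of 1 over the libraries. The cells are T24, a human cell line established from a transitional cell carcinoma of the bladder, and 3 libraries came from cells that stably express the constitutively active RhoC mutant Q63E and 3 from cells carrying the vector (VEC). Both kinds of cells were made by lentivirus and selected with puromycin. The labels do not say whether a population was 1 clone or a pool, or whether the 3 libraries of a group were cultured apart. A p-value here sets the difference between the groups against the scatter of these 6 libraries within them. It therefore does not reach beyond the cell populations sequenced. RHOC, the transduced gene, had 1770, 1726 and 1744 FPKM in Q63E cells and 232, 218 and 232 FPKM in VEC cells.

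The deposited values are taken as FPKM, a measure of fragments scaled to transcript length and library size, and summed to between 726929 and 769026 per library. No read count could be recovered from them, so the depth is unknown. The epithelial keratins KRT7, KRT8 and KRT18, of 13 epithelial and urothelial markers of which 8 had a mean under 1 FPKM, averaged 1454 ± 50.9, 985 ± 8.79 and 788 ± 1.66 FPKM in Q63E cells and 1031 ± 15, 581 ± 2.12 and 515 ± 6.54 FPKM in VEC cells (SD, n = 3 each). KRT19 of the same list averaged 161 ± 1.85 FPKM in Q63E cells and 5.67 ± 0.393 FPKM in VEC cells (SD, n = 3 each), and GATA3 0.363 and 1.79 FPKM in Q63E and VEC cells. KRT5, UPK3A and CDH1 were listed at 0 in every library. Of 7 mesenchymal markers 4 had a mean under 1 FPKM, and the list summed to 2144 to 2327 FPKM in Q63E cells and 3223 to 3296 FPKM in VEC cells, nearly all of it VIM. CDH2 was higher, with 44 ± 1.20 FPKM in Q63E cells and 33.5 ± 1.41 FPKM in VEC cells (limma adjusted p = 0.00240), and COL1A1 had 1.57, 2.63 and 2.42 FPKM in Q63E cells and 1.15, 1.29 and 1.46 FPKM in VEC cells (limma adjusted p = 0.105). VIM itself did not pass once the median of its chromosomal neighbours was subtracted (log2 fold change −0.04, limma adjusted p = 0.576). The part of this difference in the results on E2 genes was not tested. Markers of leukocytes, a list that also held the haemoglobin gene HBB, summed to 0.25 to 0.51 FPKM in Q63E cells and 0.35 to 0.49 FPKM in VEC cells. HBB had 0, 0.13 and 0.21 FPKM in Q63E cells and was listed at 0 in VEC cells. Those of endothelium summed to at most 0.24 FPKM in either group, and the leukocyte genes PTPRC and CD3E were listed at 0. A lower value in such bulk RNA does not tell fewer cells that express a gene from less RNA per cell.

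The UBE2D and UBE2E genes hold the largest fall and the 2 largest rises among the 30 genes, and their members resemble one another in sequence. The 60 coding bases from the start of the motif that precedes the active site are shown for each, from GENCODE release 29 transcripts on GRCh38 in the sense direction, because the genes carry the widest differences in both directions and part of their sequence is shared. Capitals mark the codon of the cysteine that carries ubiquitin.
UBE2D1: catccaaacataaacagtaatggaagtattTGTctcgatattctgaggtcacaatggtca
UBE2D2: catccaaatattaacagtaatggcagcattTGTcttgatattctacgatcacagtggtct
UBE2D3: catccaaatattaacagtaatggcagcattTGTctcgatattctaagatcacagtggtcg
UBE2D4: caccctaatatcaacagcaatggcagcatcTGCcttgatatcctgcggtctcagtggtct
UBE2E1: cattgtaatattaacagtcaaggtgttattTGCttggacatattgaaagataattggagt
UBE2E2: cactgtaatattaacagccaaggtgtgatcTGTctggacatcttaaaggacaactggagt
UBE2E3: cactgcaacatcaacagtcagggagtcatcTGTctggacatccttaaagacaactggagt
In this stretch UBE2D2 and UBE2D3 differed at 3 of 60 bases, and UBE2D1 and UBE2D4 at 15. Over the coding sequence of 444 bases UBE2D2 and UBE2D3 were identical at 85.1% of bases, the other UBE2D pairs at 76.1% to 78.4%, and the UBE2E pairs at 76.6% to 78.2% of aligned bases. Of the windows of 50 bases in the principal transcript, UBE2D3 shared 15.2% with another gene, most of them with the pseudogene UBE2D3P1, and UBE2D2 shared 7.85%, all with UBE2D3. The transcript used for UBE2D2 held only its 444 coding bases, and that of UBE2D3 had 1087 bases, so these percentages are not alike in what they cover. By the same count UBE2M shared 10.7%, all with its pseudogene UBE2MP1. UBE2L3 shared 7.96%, most with AL158801.5, and UBE2W 18.4%, all with AC022826.2. UBE2D4 shared 0.611%, UBE2E3 11.9%, and UBE2D1, UBE2E1 and UBE2E2 shared no window. Reads from shared windows can have been assigned to either gene.

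Across the family the levels lay lower in Q63E cells more often than higher. The 30 genes summed to 1468, 1433 and 1487 FPKM in Q63E cells and to 1636, 1676 and 1680 FPKM in VEC cells. All 3 sums of the Q63E cells thus lay below all 3 of the VEC cells. The totals over all rows separated in the same way. They were 726929, 741778 and 738158 in Q63E cells and 769026, 746175 and 749356 in VEC cells. In limma, fitted over 13346 genes with Benjamini-Hochberg adjustment and a threshold of 0.05, 16 of the 30 members passed (53.3%), against 25.3% of all genes tested. Of these, 13 were lower in Q63E cells (43.3%, against 14% of all genes) and 3 were higher (10%, against 11.3%). All members had a mean of at least 5 FPKM, whereas many of the genes tested had less. In a fit of the 9788 genes with such a mean, 4 members were higher and 14 lower, against 1371 and 1662 of all genes. The groups did not overlap for 19 members, 15 lower and 4 higher, which is 63.3% against 43.9% of all genes. The median log2 fold change of value + 1 was −0.11 over the members and −0.002 over all genes tested, and member values ran from −0.53 for UBE2D3 to 0.74 for UBE2D4. Leaving out 1 library at a time gave 8 to 10 members lower and 1 to 4 higher, and 8 of the 16 members passed in each of these 6 fits. Over all genes the same fits gave 1314 to 1483 lower and 992 to 1138 higher, against 1873 and 1510 with all libraries.

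**Figure D1:**
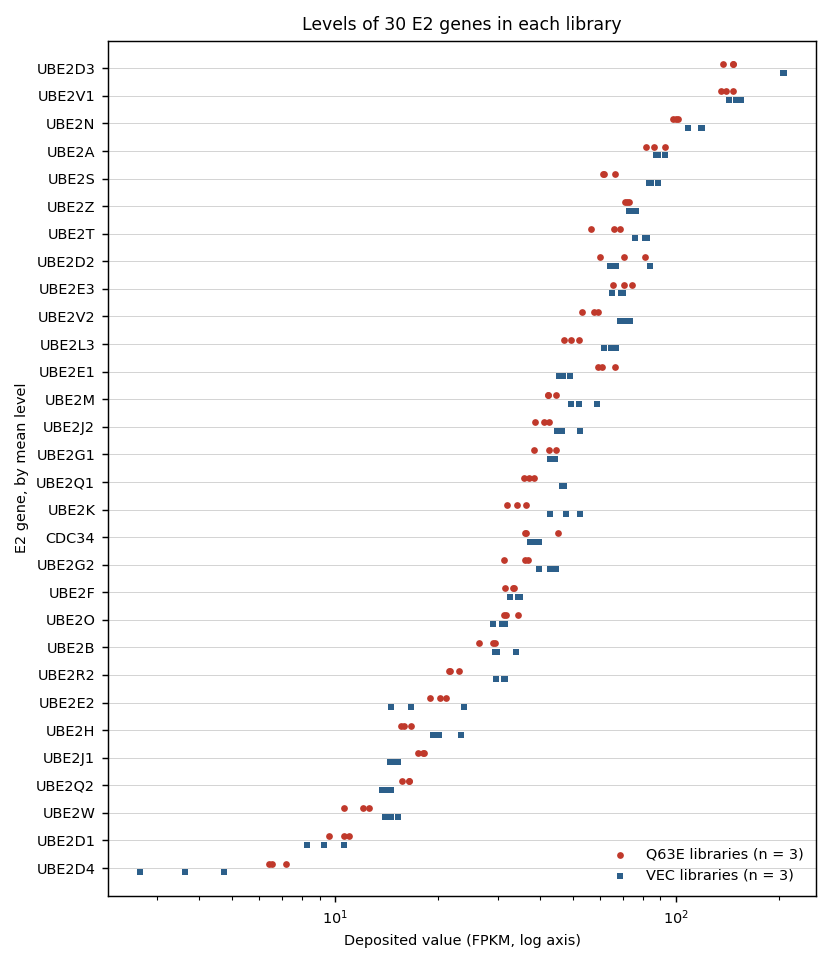
Deposited values (FPKM, log axis) of the 30 E2 genes, ordered by their mean, with circles for the 3 Q63E libraries and squares for the 3 VEC libraries. UBE2D3 stands at the top with 137 to 147 FPKM in Q63E cells and 206 to 208 FPKM in VEC cells, and UBE2D4 at the bottom with 6.42 to 7.18 FPKM in Q63E cells and 2.68 to 4.72 FPKM in VEC cells.

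The UBE2D enzymes serve many RING-type ligases and often attach the first ubiquitin. UBE2D3 (chromosome 4 from 102794383 to 102868896, minus strand, GRCh38) had the highest level of the 30 genes. It had 147, 137 and 147 FPKM in Q63E cells and 208, 208 and 206 FPKM in VEC cells. The groups stood well apart, and the VEC libraries differed by less than 2 FPKM. UBE2D3 fell (log2 fold change −0.53, SE 0.0371, limma adjusted p = 0.000327). With the median of its 50 chromosomal neighbours subtracted its log2 fold change was −0.16 and it did not pass (limma adjusted p = 0.0525). UBE2D4 (chromosome 7 from 43926438 to 43956136) had the lowest level of the 30 genes and moved the other way. It had 6.42, 7.18 and 6.53 FPKM in Q63E cells and 3.63, 2.68 and 4.72 FPKM in VEC cells. Each Q63E library lay above each VEC library, although the VEC libraries were spread widely for so low a gene. UBE2D4 rose 1.83-fold (log2 fold change 0.74, SE 0.167, limma adjusted p = 0.0206). It did not pass without Q63E replicate 1, 2 or 3 or VEC replicate 1 (limma adjusted p = 0.0579 to 0.0702). UBE2D1 and UBE2D2 overlapped between the groups, with adjusted p-values of 0.376 and 0.920 in limma. UBE2D2 had 81.3, 59.8 and 70.4 FPKM in Q63E cells and 66.9, 64.1 and 84.1 FPKM in VEC cells, the widest spread in FPKM of the 4 genes. On the log2 scale the SE was larger for UBE2D4 (0.167) than for UBE2D2 (0.14). Summed over UBE2D1 to UBE2D4, the level was 231 ± 15.3 FPKM in Q63E cells and 292 ± 12 FPKM in VEC cells (SD, n = 3 each), and UBE2D3 made up the greater part of it in both.

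The UBE2E enzymes carry an extension in front of the conjugating domain and also work with RING-type ligases. UBE2E1 (chromosome 3 from 23805903 to 23891316) had 59.0, 66.3 and 60.7 FPKM in Q63E cells and 49.0, 46.7 and 45.3 FPKM in VEC cells. All Q63E libraries lay above all VEC libraries. UBE2E1 rose (log2 fold change 0.39, SE 0.0571, limma adjusted p = 0.00417), but did not pass with its neighbours' median subtracted (0.06, limma adjusted p = 0.490). Its neighbour UBE2E2 (chromosome 3 from 23203020 to 23591793) had 21.1, 20.4 and 18.9 FPKM in Q63E cells and 14.5, 16.7 and 23.9 FPKM in VEC cells. VEC replicate 3 lay above all Q63E libraries, and the other VEC libraries lay below them. UBE2E2 did not pass in limma (log2 fold change 0.15, adjusted p = 0.553), but did without VEC replicate 3 (0.35, adjusted p = 0.0499). UBE2E3, on chromosome 2, averaged 70.0 ± 4.46 FPKM in Q63E cells and 67.9 ± 2.81 FPKM in VEC cells (SD, n = 3 each), a difference smaller than these spreads.

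**Figure D2:**
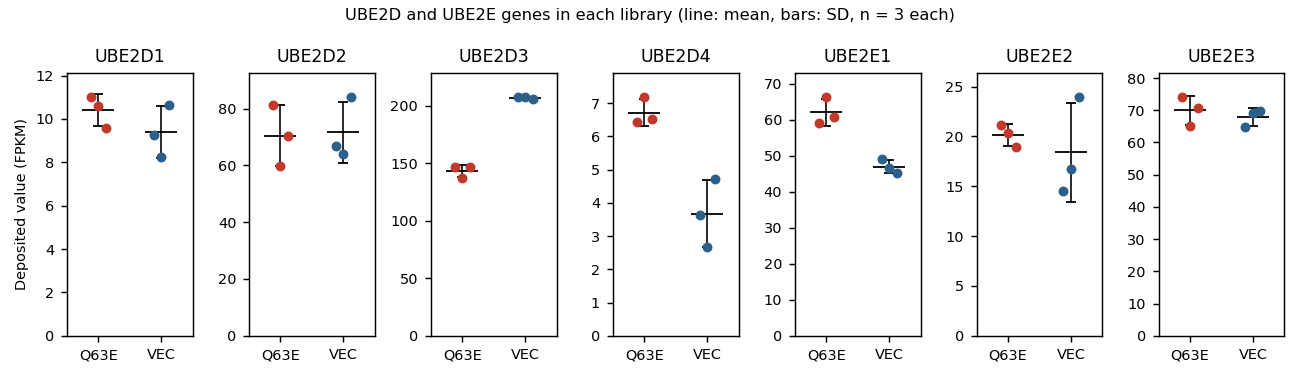
Deposited values (FPKM) of the 4 UBE2D and 3 UBE2E genes, with a point for each library, a line for the mean and bars for the SD (n = 3 each); each panel has its own scale from 0. UBE2D3 is lower and UBE2D4 and UBE2E1 are higher in all Q63E libraries, while the points of UBE2D1, UBE2D2, UBE2E2 and UBE2E3 overlap between the groups.

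Among E2 enzymes of the cell cycle and of DNA repair, UBE2S and UBE2T fell. UBE2S extends ubiquitin chains on targets of the anaphase-promoting complex (APC/C), the ligase that ends mitosis, and lies on chromosome 19 from 55399745 to 55407777. It had 61.3, 61.5 and 66.2 FPKM in Q63E cells and 84.3, 88.6 and 83.3 FPKM in VEC cells, with a gap between the groups larger than the spread within either. Its log2 fold change was −0.43 (SE 0.0468, limma adjusted p = 0.00137), and it is 1 of 3 called members that also passed under all 16 alternative settings. Of its 50-base windows, 17.5% were shared with other genes, most with the pseudogene UBE2SP1. UBE2T, which attaches the single ubiquitin that activates the Fanconi anaemia repair proteins FANCD2 and FANCI, lies on chromosome 1 from 202331657 to 202341980. It had 56.4, 65.7 and 68.4 FPKM in Q63E cells and 82.2, 75.8 and 81.0 FPKM in VEC cells. Q63E replicate 1 was the lowest, and the groups did not overlap. Its log2 fold change was −0.33 (limma adjusted p = 0.0246), and it did not pass without Q63E replicate 2, VEC replicate 1 or VEC replicate 3 (limma adjusted p = 0.0524 to 0.0783).

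The promoters of UBE2S and UBE2T are shown because both genes are known for periodic expression in the cell cycle and were lower together. They are RefSeq sequences on GRCh38.p14 from 250 bases before to 50 bases after the annotated start, on the gene's strand: chr19:55407739-55408038 (minus strand) and chr1:202341887-202342186 (minus strand). Capitals mark TTTGAA, the letters of the cell cycle genes homology region (CHR), and CCAAT, the letters of the CCAAT box, both searched on both strands.
UBE2S: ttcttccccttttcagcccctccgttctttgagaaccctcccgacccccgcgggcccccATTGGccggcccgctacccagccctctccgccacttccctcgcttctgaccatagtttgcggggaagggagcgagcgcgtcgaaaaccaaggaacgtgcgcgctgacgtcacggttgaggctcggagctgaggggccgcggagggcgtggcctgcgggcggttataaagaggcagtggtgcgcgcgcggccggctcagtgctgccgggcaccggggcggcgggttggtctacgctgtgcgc
UBE2T: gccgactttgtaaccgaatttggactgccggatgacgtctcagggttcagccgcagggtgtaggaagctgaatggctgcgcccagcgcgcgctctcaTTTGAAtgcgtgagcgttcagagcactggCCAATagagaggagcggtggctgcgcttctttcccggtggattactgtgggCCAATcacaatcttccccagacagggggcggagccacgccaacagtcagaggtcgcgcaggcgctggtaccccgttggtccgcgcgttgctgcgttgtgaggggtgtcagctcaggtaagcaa
UBE2T held 1 TTTGAA, at position −153 from the start, and CCAAT at −124 and −73. UBE2S held 1 CCAAT match, at −191 on the opposite strand, where it reads ATTGG as printed. The matches do not overlap one another. Of 35116 promoters of this length, 15.2% held TTTGAA, 34.6% held CCAAT and 5.9% held both. Of the 25 members found in the table, 2 held TTTGAA (UBE2F and UBE2T) and 8 held CCAAT. Members are counted as genes, over any promoter of the gene, and the shares above as promoters. UBE2F, like UBE2T, held both, and it did not pass (log2 fold change −0.05, limma adjusted p = 0.475). A match is a description of letters and not of a bound site.

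CDC34 and UBE2R2 build chains on targets of cullin-RING ligases, and their coding sequences were identical at 74.6% of aligned bases. UBE2R2 (chromosome 9 from 33817567 to 33920404) had 23.1, 21.8 and 21.5 FPKM in Q63E cells and 31.4, 29.7 and 31.3 FPKM in VEC cells. It fell with a clear gap between the groups (log2 fold change −0.46, SE 0.0512, limma adjusted p = 0.00154), but did not pass with its neighbours' median subtracted (−0.06, limma adjusted p = 0.438). CDC34 had 36.2, 45.2 and 36.4 FPKM in Q63E cells and 37.2, 39.5 and 38.6 FPKM in VEC cells. Q63E replicate 2 lay above all VEC libraries and the other Q63E libraries below them, so the groups overlapped (limma adjusted p = 0.883). The NEDD8 enzymes UBE2M and UBE2F switch on cullin ligases. UBE2M had 42.2, 44.5 and 42.1 FPKM in Q63E cells and 49.3, 58.5 and 51.8 FPKM in VEC cells. UBE2M fell (log2 fold change −0.30, limma adjusted p = 0.0218), but did not pass without Q63E replicate 1, Q63E replicate 3 or VEC replicate 3 (limma adjusted p = 0.0554 to 0.0709). UBE2F averaged 32.7 ± 1.05 FPKM in Q63E cells and 33.9 ± 1.09 FPKM in VEC cells (SD, n = 3 each), a difference close to the spread. The readthrough row UBE2F-SCLY, which shares part of its transcript, averaged 3.31 ± 0.168 FPKM in Q63E cells and 4.28 ± 0.639 FPKM in VEC cells (SD, n = 3 each).

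The E2 enzymes of ER-associated degradation did not move as one. UBE2J1, which is anchored in the ER membrane (chromosome 6 from 89326625 to 89352848), had 17.5, 18.1 and 18.3 FPKM in Q63E cells and 14.4, 15.1 and 15.3 FPKM in VEC cells. It was the third member that rose (log2 fold change 0.25, limma adjusted p = 0.0161), although it did not pass without Q63E replicate 2 or 3 (limma adjusted p = 0.0522 and 0.0559). UBE2J2, the other membrane-anchored member, had 42.5, 38.5 and 41.0 FPKM in Q63E cells and 44.9, 52.2 and 46.3 FPKM in VEC cells. All its Q63E values were the lower ones, and its adjusted p of 0.0560 in limma lay just outside the threshold. UBE2G2, a soluble enzyme of this pathway, had 36.1, 31.4 and 36.8 FPKM in Q63E cells and 42.8, 44.6 and 39.7 FPKM in VEC cells. It fell just inside the threshold (log2 fold change −0.28, limma adjusted p = 0.0377), and without any 1 of the 6 libraries it did not pass (limma adjusted p = 0.0512 to 0.106). With its neighbours' median subtracted its log2 fold change was 0.02 (limma adjusted p = 0.879). UBE2G1 averaged 41.7 ± 3.15 FPKM in Q63E cells and 43.7 ± 0.858 FPKM in VEC cells (SD, n = 3 each) and overlapped between the groups.

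UBE2N builds ubiquitin chains that serve as scaffolds in DNA damage and inflammatory signalling, and needs UBE2V1 or UBE2V2, the partners without an active cysteine. UBE2N had 101, 98.0 and 100 FPKM in Q63E cells and 109, 119 and 118 FPKM in VEC cells. It fell by 0.20 on the log2 scale (limma adjusted p = 0.0195), the smallest change among the called members, and passed in only 1 of the 6 fits that left out a library, the one without VEC replicate 1 (limma adjusted p = 0.0502 to 0.0661 in the fits without VEC replicate 2 or 3 or Q63E replicate 1, 2 or 3). UBE2V2 had 53.1, 57.3 and 58.9 FPKM in Q63E cells and 71.1, 73.1 and 68.7 FPKM in VEC cells. It fell more, with a log2 fold change of −0.33 (SE 0.0511, limma adjusted p = 0.00548), and did not pass with its neighbours' median subtracted (−0.11, limma adjusted p = 0.174). UBE2V1 had 136, 140 and 146 FPKM in Q63E cells and 143, 155 and 149 FPKM in VEC cells, and the groups overlapped (limma adjusted p = 0.227). Of its 50-base windows 97.3% lie also in the readthrough gene TMEM189-UBE2V1, named PEDS1-UBE2V1 in the newer table, so the split between these rows is uncertain. That row averaged 5.78 ± 1.60 FPKM in Q63E cells and 7.29 ± 1.05 FPKM in VEC cells (SD, n = 3 each). UBE2K, which extends chains that lead to the proteasome (chromosome 4 from 39698044 to 39782792), had 32.0, 34.1 and 36.2 FPKM in Q63E cells and 47.6, 42.7 and 52.3 FPKM in VEC cells. It had the second largest fall of the 30 genes (log2 fold change −0.47, SE 0.0840, limma adjusted p = 0.00925), and did not pass with its neighbours' median subtracted (−0.22, limma adjusted p = 0.134).

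UBE2L3 serves HECT and RING-between-RING ligases, which take ubiquitin onto a cysteine of their own. It had 49.1, 47.0 and 52.0 FPKM in Q63E cells and 66.5, 61.5 and 64.3 FPKM in VEC cells. UBE2L3 fell (log2 fold change −0.37, SE 0.0524, limma adjusted p = 0.00372). UBE2Q1, an E2 with a long region in front of the conjugating domain, had 37.1, 35.9 and 38.4 FPKM in Q63E cells and 47.0, 46.4 and 46.3 FPKM in VEC cells. It fell (log2 fold change −0.32, SE 0.0416, limma adjusted p = 0.00272), and like UBE2S and UBE2L3 it passed under all 16 alternatives. Its relative UBE2Q2 had 16.4, 15.7 and 16.5 FPKM in Q63E cells and 14.2, 13.7 and 14.6 FPKM in VEC cells. All Q63E values of UBE2Q2 were the higher ones, and its adjusted p of 0.0509 in limma lay just outside the threshold. The 4 rows named UBE2Q2P1, UBE2Q2P2, UBE2Q2P13 and UBE2Q2P16 averaged 1.69 to 4.21 FPKM in Q63E cells and 0.75 to 2.93 FPKM in VEC cells, and none passed (adjusted p = 0.0834 to 0.258 in limma). Of 54 rows whose symbol holds that of a member, 6 had a mean of at least 1 FPKM and 36 were listed at 0 in every library.

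UBE2A and UBE2B, the RAD6 enzymes that work with RAD18 at stalled replication forks and with RNF20 and RNF40 on histone H2B, did not pass. UBE2A had 86.3, 81.5 and 92.9 FPKM in Q63E cells and 87.3, 92.7 and 88.2 FPKM in VEC cells, and UBE2B averaged 28.3 ± 1.71 FPKM in Q63E cells and 31.1 ± 2.38 FPKM in VEC cells (SD, n = 3 each). UBE2H, the E2 of the CTLH ligase, had 15.97, 15.60 and 16.73 FPKM in Q63E cells and 20.2, 23.4 and 19.4 FPKM in VEC cells. UBE2H fell (log2 fold change −0.36, limma adjusted p = 0.0203), but did not pass without Q63E replicate 1 or 2 (limma adjusted p = 0.0652 and 0.0666). UBE2W, which attaches ubiquitin to the first residue of proteins, had 12.1, 12.6 and 10.6 FPKM in Q63E cells and 15.26, 14.58 and 13.97 FPKM in VEC cells. UBE2W fell by 0.29 on the log2 scale (limma adjusted p = 0.0377), but passed in only 1 of the 6 fits that left out a library, the one without Q63E replicate 2 (limma adjusted p = 0.0708 to 0.107 in the fits without Q63E replicate 1 or 3 or VEC replicate 1, 2 or 3). UBE2O, a large enzyme that acts as E2 and E3 in 1 protein, averaged 32.5 ± 1.68 FPKM in Q63E cells and 30.5 ± 1.27 FPKM in VEC cells, and UBE2Z, which takes ubiquitin from the E1 enzyme UBA6, 71.8 ± 1.05 and 74.7 ± 1.78 FPKM in Q63E and VEC cells (SD, n = 3 each). Neither passed, with adjusted p-values of 0.305 and 0.291 in limma.

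Some members lay among genes that differed in the same direction. For each member the median log2 fold change of the 50 nearest tested genes, 25 on each side, was taken. It was at least 0.2 in size for 7 members, a limit set after the values were seen. These were UBE2D3 (neighbour median −0.34) and UBE2K (−0.22) on chromosome 4, UBE2R2 on chromosome 9 (−0.36), UBE2G2 on chromosome 21 (−0.34), UBE2V2 on chromosome 8 (−0.22), and UBE2E1 (0.30) and UBE2E2 (0.31) on chromosome 3. Of these 7, 6 passed in limma, and each of these had the sign of its neighbours. With the neighbours' median deviation subtracted in each library 0 of the 7 passed in limma, and 2 had an unadjusted p under 0.05. Of the other 23 members 10 passed before and 10 after the subtraction. UBE2S (−0.39, limma adjusted p = 0.00230), UBE2H (−0.39, 0.0240), UBE2T (−0.34, 0.0298), UBE2Q1 (−0.28, 0.0130), UBE2L3 (−0.25, 0.0359), UBE2N (−0.24, 0.0245), UBE2D4 (0.70, 0.0318) and UBE2J1 (0.25, 0.0216) passed in both. UBE2M (limma adjusted p = 0.0860) and UBE2W (0.164) no longer passed, and UBE2J2 (0.0414) and UBE2Z (0.0467) passed only then. After subtraction 8 of the 30 members were lower and 2 higher, and over all 13298 genes then tested 17.3% passed, 8.93% lower and 8.38% higher.

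**Figure D3:**
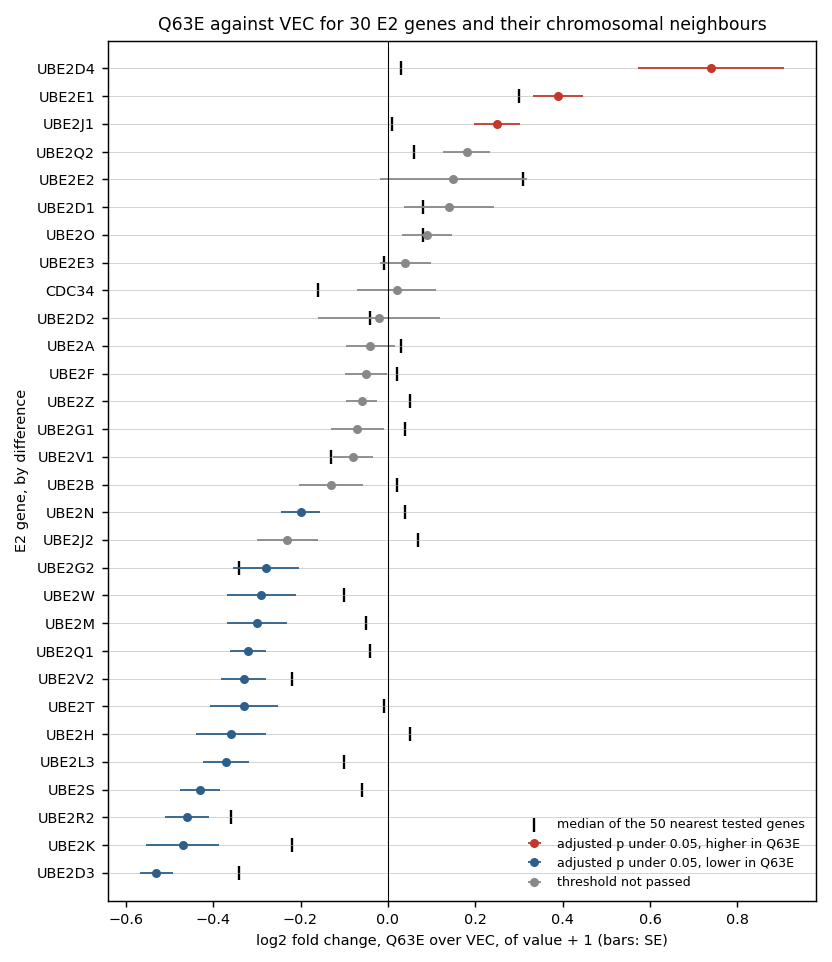
Log2 fold change of value + 1 (Q63E over VEC, bars for the SE, 3 libraries per group) of each E2 gene, coloured by the limma call, with a black tick for the median of its 50 nearest tested genes. The ticks of UBE2D3 (−0.34), UBE2R2 (−0.36) and UBE2E1 (0.30) lie far from 0 on the side of the gene, while those of UBE2S (−0.06), UBE2T (−0.01), UBE2Q1 (−0.04) and UBE2D4 (0.03) lie close to 0.

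Genes that work with the E2 enzymes were counted in lists, to be read against the 25.3% of all genes that passed (14% lower, 11.3% higher). Nothing particular to a list is read from its count. The 4 ubiquitin genes had 0 calls in limma and 0 unadjusted p-values under 0.05. RPS27A, which encodes ubiquitin fused to a ribosomal protein, averaged 1048 ± 44.7 FPKM in Q63E cells and 946 ± 100.2 FPKM in VEC cells (SD, n = 3 each). Of 9 E1 enzymes 2 rose and 1 fell. The rises were those of ATG7, the E1 of autophagy (26.6 ± 0.602 FPKM in Q63E cells, 17.4 ± 2.27 FPKM in VEC cells), and NAE1, a subunit of the NEDD8 E1 (53.7 ± 1.60 and 47.4 ± 1.92 FPKM in Q63E and VEC cells). UBA7, the E1 for the interferon-induced modifier ISG15, fell to 3.54 ± 0.524 FPKM in Q63E cells, against 5.18 ± 0.460 FPKM in VEC cells. Of 10 tested genes of other E2-like proteins, UBE2C alone passed. UBE2C starts chains on APC/C targets before UBE2S extends them, and fell to 400, 417 and 404 FPKM in Q63E cells, against 466, 458 and 475 FPKM in VEC cells (log2 fold change −0.20, limma adjusted p = 0.00619). With the neighbours' median subtracted ATG7 (adjusted p = 0.133) and NAE1 (0.159) did not pass in limma, and UBA7 (0.00934) and UBE2C (0.0129) did.

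Lists of the ligases and targets that work with UBE2S, UBE2T, UBE2R2 and the ER enzymes held calls in both directions. Of 17 APC/C genes 3 fell and 1 rose, with a median log2 fold change of −0.02. ANAPC4 averaged 9.68 ± 0.635 FPKM in Q63E cells and 14.3 ± 1.11 FPKM in VEC cells, ANAPC13 30.2 ± 1.69 and 38.3 ± 0.996 FPKM, and the risen ANAPC16 45.4 ± 5.20 and 35.8 ± 2.58 FPKM in Q63E and VEC cells (SD, n = 3 each). With the neighbours' median subtracted ANAPC4 (adjusted p = 0.129) and ANAPC16 (0.158) did not pass in limma, and ANAPC13 (0.00883) did. Of 14 Fanconi genes 5 rose and 2 fell (median 0.11). FANCD2, a protein that UBE2T modifies, had 29.2, 20.9 and 25.8 FPKM in Q63E cells and 18.39, 10.98 and 16.63 FPKM in VEC cells (log2 fold change 0.70, limma adjusted p = 0.0458), with a neighbour median of 0.35, and did not pass with it subtracted (limma adjusted p = 0.244). So UBE2T and this target of it were called in opposite directions. FANCC averaged 7.81 ± 0.331 FPKM in Q63E cells and 12.2 ± 1.69 FPKM in VEC cells, and FANCB 4.92 ± 0.619 and 3.29 ± 0.202 FPKM in Q63E and VEC cells. Both passed, FANCC as lower and FANCB as higher, and neither did with the neighbours' median subtracted (limma adjusted p = 0.102 and 0.0525). Of 16 tested cullin and neddylation genes 3 fell and 1 rose (median −0.10), CUL2 most with 14.5 ± 0.734 FPKM in Q63E cells and 22.4 ± 1.95 FPKM in VEC cells. CAND1, which exchanges the substrate receptors of cullins, fell to 27.4 ± 1.45 FPKM in Q63E cells, against 33.2 ± 2.56 FPKM in VEC cells. The ligase ARIH2 rose to 51.9 ± 2.01 FPKM in Q63E cells, against 43.6 ± 3.34 FPKM in VEC cells, but did not pass with the neighbours' median subtracted (limma adjusted p = 0.291). Of 14 genes of ER-associated degradation 3 rose and 3 fell (median −0.05). VCP, the segregase that pulls proteins from the membrane, averaged 118 ± 1.86 FPKM in Q63E cells and 170 ± 4.32 FPKM in VEC cells, and the ligase adaptor SEL1L had 23.62, 23.95 and 24.05 FPKM in Q63E cells and 17.65, 16.15 and 18.05 FPKM in VEC cells. NPLOC4, a cofactor of VCP, fell to 55.1 ± 1.07 FPKM in Q63E cells, against 75.5 ± 3.61 FPKM in VEC cells.

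Lists of partners of UBE2A, UBE2H, UBE2N and UBE2L3 held 1 to 3 calls each. Of 8 RAD6 partners 2 fell and 1 rose, and RNF20 averaged 22.3 ± 0.380 FPKM in Q63E cells and 30.1 ± 0.367 FPKM in VEC cells (SD, n = 3 each). WAC, an adaptor of RNF20, fell most, to 35.4 ± 1.96 FPKM in Q63E cells, against 52.4 ± 0.874 FPKM in VEC cells. The ligase UBR4 rose to 75.9 ± 0.565 FPKM in Q63E cells, against 67.3 ± 1.28 FPKM in VEC cells. With the neighbours' median subtracted RNF20 passed, and WAC and UBR4 did not (limma adjusted p = 0.0160, 0.301 and 0.0657). Of 11 CTLH genes 2 rose and 1 fell, the fallen one being MAEA, a ligase subunit, with 58.7, 64.9 and 56.1 FPKM in Q63E cells and 80.9, 83.4 and 82.3 FPKM in VEC cells. It did not pass in limma with the neighbours' median subtracted (adjusted p = 0.845). The complex members ARMC8 and RANBP10 rose, ARMC8 with 20.6 ± 5.14 FPKM in Q63E cells and 13.1 ± 0.998 FPKM in VEC cells, and RANBP10 with 9.32 ± 0.658 and 7.18 ± 0.557 FPKM in Q63E and VEC cells. RANBP10 did not pass with the neighbours' median subtracted (limma adjusted p = 0.0756). Of 14 partners of UBE2N 1 rose and 1 fell, of 10 RING-between-RING genes 1 rose and 0 fell, and of 17 HECT ligases 2 rose and 1 fell. RBCK1, a subunit of the ligase that makes linear chains, rose to 99.3 ± 4.43 FPKM in Q63E cells, against 74.6 ± 6.42 FPKM in VEC cells, and the HECT ligase SMURF2 to 130.4 ± 1.51 FPKM, against 89.8 ± 4.90 FPKM in VEC cells. NEDD4L, of the same ligase class, rose to 64.3 ± 3.52 FPKM in Q63E cells, against 46.8 ± 4.37 FPKM in VEC cells, and UBE3C fell to 35 ± 1.68 FPKM, against 40.6 ± 1.32 FPKM in VEC cells. Among the partners of UBE2N the ligase BIRC3 fell to 5.02 ± 0.503 FPKM in Q63E cells, against 7.49 ± 0.689 FPKM in VEC cells, and the ligase ZNRF1 rose to 23.5 ± 1.07 FPKM, against 19.5 ± 0.695 FPKM in VEC cells. SHARPIN, a partner of RBCK1, averaged 45.9 ± 5.16 FPKM in Q63E cells and 56.3 ± 3.58 FPKM in VEC cells and did not pass (limma adjusted p = 0.0563). UBE3C and ZNRF1 did not pass with the neighbours' median subtracted (limma adjusted p = 0.0957 and 0.122). Of 31 proteasome genes 2 rose and 3 fell, with a median log2 fold change of 0. The subunits PSMC5 and PSMC6 rose, PSMC5 with 189 ± 9.06 FPKM in Q63E cells and 157 ± 6.84 FPKM in VEC cells and PSMC6 with 74 ± 4.10 and 65.6 ± 0.503 FPKM in Q63E and VEC cells. PSMD2 fell to 583 ± 8.39 FPKM in Q63E cells, against 681 ± 15 FPKM in VEC cells. None of these 3 passed with the neighbours' median subtracted (limma adjusted p = 0.400, 0.462 and 0.604 for PSMC5, PSMC6 and PSMD2). Genes of proliferation, given here because UBE2S, UBE2T and UBE2C are periodic genes, had 5 fallen and 2 risen of 15 (median −0.10), and summed to 1534 to 1625 FPKM in Q63E cells and 1691 to 1742 FPKM in VEC cells. Among them CCNA2 fell most, to 40.4 ± 1.31 FPKM in Q63E cells, against 58.3 ± 1.52 FPKM in VEC cells, but did not pass with the neighbours' median subtracted (limma adjusted p = 0.0944), whereas PCNA (0.00398) and AURKA (0.00576) did. PCNA fell to 175 ± 6.22 FPKM in Q63E cells, against 235 ± 8.47 FPKM in VEC cells, and AURKA to 115 ± 7.65 FPKM, against 154 ± 1.11 FPKM in VEC cells. The part of this lower level in the falls of UBE2S and UBE2T was not tested.

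**Figure D4:**
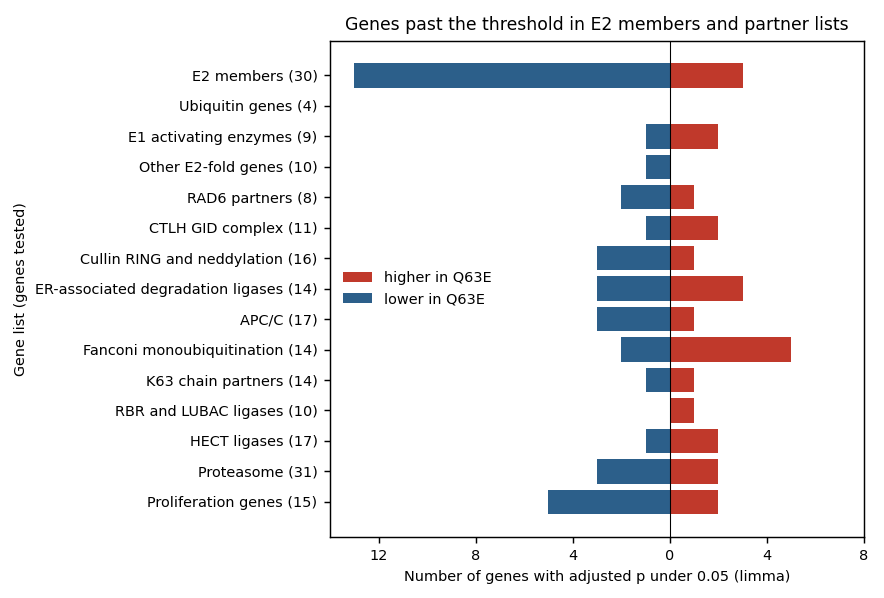
Number of genes with a limma adjusted p under 0.05 in the E2 members and in each list of partners, higher in Q63E cells to the right and lower to the left, with the number of genes tested in brackets. The E2 members have 3 higher and 13 lower of 30, the Fanconi genes 5 higher and 2 lower of 14, and the ubiquitin genes have no call.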

How the data were processed

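RNA from 6 libraries was sequenced, and the authors deposited a table per library with 58882 rows, whose values are taken here as FPKM. The unit is inferred from the values alone, since no header or label gives it. HISAT2 2.1.0, Bowtie2 and GRCh38.p10 are named in the submitters' processing notes. Counter and annotation were not given in the sources used here. A search for whole reads placed 26.6% to 31.0% of low values in each library within 0.1 of whole steps, at the best of many step sizes tried. Without steps 20% is the share at a single step size, and the best of many would lie higher. No whole reads were recovered, so count tests were not used and no interval or floor is given. Assembled loci (649 rows) were left out. They held 0.274% to 0.511% of a library. Symbols matched 57392 of 58233 identifiers, and GENCODE 29 coordinates 57895.

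Values were tested as log2(value + 1) with limma 3.58.1 (lmFit, eBayes with trend) in R 4.3.3, for genes with a mean of at least 1, two-sided, on group alone. Of these genes, 11568 were protein-coding. A fold on this scale understates changes of low genes. This fit was first tested on simulated data. Strand is not stated, so overlapping genes may share reads.

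The members and lists were chosen with earlier results of these data known. All members are named, with RHOC, related rows with a mean of at least 1, and up to 3 called genes per list with the largest change (the 2 highest genes where fewer than 2 passed), except 2 list genes that are not reported here. Same-numbered libraries did not deviate together (r = −0.042 to −0.008). With 3 libraries per group this cannot decide whether they were handled in pairs, and the labels do not say. Alternatives changed the pseudocount, filter, scaling, spread prior, replicate block, neighbour correction and libraries.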

Additional observations from a re-analysis of the deposited data

How the results depend on the processing

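The number of members called was 3 higher and 13 lower, out of 1510 genes higher and 1873 lower. Over 16 alternatives 13 of the 16 called members lost their call at least once, and 4 others (UBE2E2, UBE2J2, UBE2Q2 and UBE2Z) gained one in at least 1 setting. With the replicate number as a block, 1 member was higher (UBE2E1) and 8 were lower, with 942 genes higher and 1266 lower in all. The labels do not say whether the numbers pair the libraries. In the deviations from the group means no library correlated best with its own number. Subtracting the neighbours' median left 8 members lower and 1187 genes lower. Leaving out 1 library gave 1 to 4 members higher, 8 to 10 lower, 992 to 1138 genes higher, 1314 to 1483 lower and a member median of −0.14 to −0.09. This median was −0.07 after rescaling to equal totals (4 members higher and 10 lower, with 1823 genes higher and 1586 lower in all), −0.07 after quantile normalization and −0.12 after rescaling without mitochondrial genes. Over all genes tested the median was −0.002 before, 0.031 after rescaling to equal totals, 0.016 after quantile normalization and −0.014 without mitochondrial genes. Pseudocounts of 0.1 and 0.01 changed no member call. Sign changes touched UBE2G2, called in the fit on all genes and at 0.02 after neighbour subtraction, and uncalled members. These uncalled members were UBE2D2 (0.01 after rescaling and after quantile normalization, 0.04 after neighbour subtraction), UBE2E2 (−0.19), UBE2O (−0.02) and UBE2V1 (0.04) after neighbour subtraction. Without single libraries they were UBE2D2 (−0.13 to 0.09), UBE2E3 (0.00), UBE2A (0.00) and CDC34 (−0.08 to 0.08). The depth is unknown, so what it limits was not measured. The cause of these shifts was not tested.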
